A study of Mus musculus with 4 samples.

Results

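The 8 multi-copy gene loci described here are stretches of the mouse genome in which families of similar genes lie side by side on segmental duplications. They are the Sp100 relatives on chromosome 1, the Mup, Skint and Pramef/zinc finger clusters on chromosome 4, the defensins on chromosome 8, and 3 loci on chromosomes 5, 14 and 17 that carry no family name. Members were peaks whose midpoint lay inside fixed borders on mm9, and the loci were chosen by their ChIP and input values in this same list. They held 315 of the 37778 peaks of the list, over 24.5 Mb. Dentate gyrus came from C57BL6 mice, about 9 weeks old, of a line that carries FLAG-tagged Mbd1. Anti-FLAG antibody gave 2 ChIP libraries, and 2 input libraries were made without antibody from the same line. No anti-FLAG ChIP of untagged mice was analysed here, so ChIP over input cannot be told apart from background of the antibody or the chromatin. The labels do not say which animals gave each library, or whether animals were pooled.

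MBD1 is a methyl-CpG binding protein that recruits repressive chromatin factors, and in the adult dentate gyrus it is known for its part in neural stem cell differentiation. Tandem gene families grow by duplication, so neighbouring copies can be nearly identical, and a short read from one copy may match several places. A reference assembly may hold fewer or more copies than the strain sequenced, and read depth at such loci then differs from that of single-copy DNA in ChIP and input alike. SP100 and its relatives are proteins of nuclear bodies, MUPs are pheromone carriers made mainly in liver, and SKINT proteins act in the upkeep of T cells in the skin. PRAME family members are expressed mainly in germ cells and early embryos, KRAB zinc finger proteins repress transposable elements, and defensins are antimicrobial peptides.

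How alike such copies can be is shown by promoters from RefSeq (GRCm38.p6). They are given for the families only and are not placed on the mm9 peaks, because no gene positions on mm9 were used. Each line is the 100 bases before a gene's start, 5′ to 3′, which is the read length of these libraries. Capitals mark letters that differ from the partner in an ungapped alignment, and a line without capitals is identical to its partner. The first pair is from the alpha-defensins, the second from the Pramel genes of chromosome 5, the third from Mup and the last from Skint; no other pair of its family has fewer differences. For Defa, 5 of 120 pairs tie at 0 differing letters and for Pramel 5 of 66, and the pair with the lowest gene numbers is shown; the Mup and Skint pairs have no tie.
Defa2: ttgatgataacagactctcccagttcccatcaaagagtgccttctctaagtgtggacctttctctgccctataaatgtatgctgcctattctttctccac
Defa20: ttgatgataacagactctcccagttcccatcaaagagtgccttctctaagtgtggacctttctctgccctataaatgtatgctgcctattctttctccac
Pramel33: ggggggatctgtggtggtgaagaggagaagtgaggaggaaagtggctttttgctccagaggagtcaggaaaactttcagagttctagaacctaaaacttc
Pramel35: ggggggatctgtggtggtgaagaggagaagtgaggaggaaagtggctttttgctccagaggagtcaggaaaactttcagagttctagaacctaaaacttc
Mup9: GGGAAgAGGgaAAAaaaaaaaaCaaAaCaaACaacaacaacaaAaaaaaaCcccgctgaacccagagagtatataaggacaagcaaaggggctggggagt
Mup19: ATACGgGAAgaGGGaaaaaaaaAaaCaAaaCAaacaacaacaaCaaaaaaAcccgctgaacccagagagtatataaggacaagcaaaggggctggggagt
Skint5: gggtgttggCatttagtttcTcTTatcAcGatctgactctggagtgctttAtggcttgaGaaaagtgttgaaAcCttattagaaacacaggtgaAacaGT
Skint6: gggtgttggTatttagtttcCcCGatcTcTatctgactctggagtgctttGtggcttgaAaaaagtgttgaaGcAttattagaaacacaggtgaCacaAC
Defa2 and Defa20 had 0 differing letters, and so did Pramel33 and Pramel35. Mup9 and Mup19 differed at 18 letters, and Skint5 and Skint6 at 13. These are the closest pairs by this count, and not typical ones by it. Over all pairs of a family, also without gaps, the median was 71 differing letters for Defa, 71.5 for Pramel, 64 for Mup and 75 for Skint. Letters are compared at fixed positions, so like copies that are shifted by a few bases can differ at many letters. The medians therefore do not measure how unlike the copies are. Exact stretches found at any position of the promoters are given next. The 4 defensin and Pramel stretches held 0 CG dinucleotides, the Mup pair held 1 and 2, and the Skint pair held 1 each.

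The families differed widely in how much promoter sequence is repeated exactly. Among the 16 Defa genes with a promoter in the table, on average 75.0% of a promoter's 100-base stretches also stood, without a mismatch, in the promoter of another Defa gene, and 10 of the 16 were covered whole. For 12 Pramel genes of chromosome 5 the mean was 54.8%, and for 14 Mup genes it was 26.3%. By contrast, 0 of 11 Skint and 0 of 14 Defb promoters shared a stretch within the family, and the means were 1.23% for Pramel and Oog and 1.82% for Zfp genes of chromosome 4. Sp100, Sp110 and Sp140 shared no stretch with each other but 30.8% on average with any gene. Sp140 shared stretches with A530032D15Rik and C130026I21Rik and Sp100 with Gm7609, all on chromosome 1, while the 5.47% that Sp110 shared stood in 8 genes on chromosomes 4, 10 and 15. Of the genes of chromosome 17 named with a copy letter, a set chosen after the table was seen, 2 of 11 shared a stretch within the set, with a mean of 0.271%. Counted against any gene of the table, the mean was 9.66% for the Zfp genes, 5.93% for Pramel and Oog and 7.01% for the chromosome 17 set, and over all 27025 promoters it was 7.70%. The table does not list every copy, so these shares count listed copies only.

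**Figure D1:**
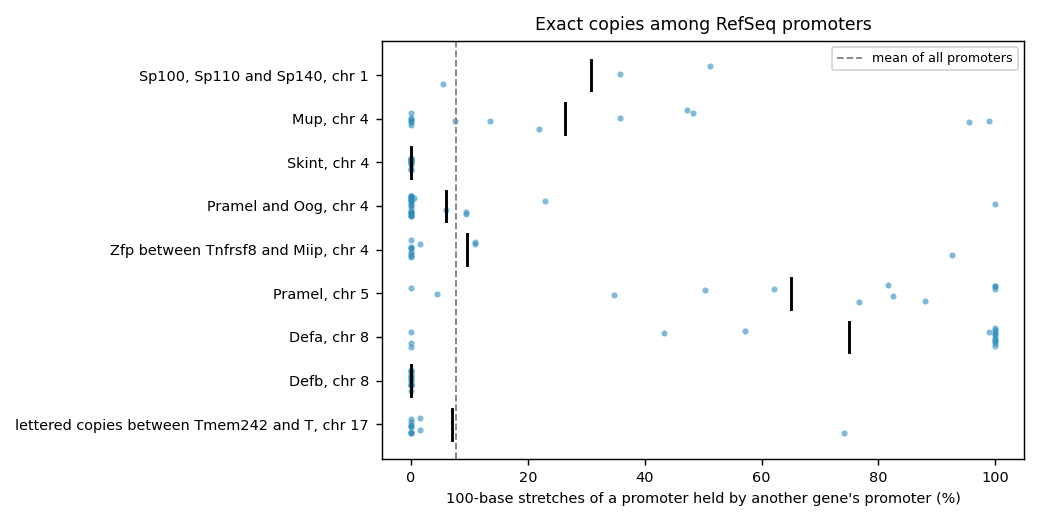
Each point is 1 gene; the horizontal axis is the percentage of the 100-base stretches of its promoter that stand, letter for letter, in the promoter of any other gene of the table, bars are family means and the dashed line is the mean of all promoters. Defa and chromosome 5 Pramel genes lie mostly to the right, with means of 75.0% and 65.0%, while the Skint and Defb genes lie at 0.

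In the peak list, mean ChIP and mean input give the average number of reads in the bins that make up a peak. The bin width, near 200 bp, was inferred. Scaled input is the authors' input times 2.42, and the ratio is mean ChIP over mean scaled input where input is above 0. A peak is called input-poor when its mean input is under 2.98 reads per bin, which is 0.25 times the median of 11.9 over the list. Because 1 list covers the 4 libraries, no value has replicate error. Intervals of single peaks and runs are exact binomial 95% intervals that cover counting error only, and those of medians cover the spread over peaks. Reads can fall in more than 1 bin, so summed counts may not all be separate reads. The intervals of peaks and runs may then be too narrow, and the bounds for peaks without input too high. The depth of the libraries is unknown.

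Over the 8 loci, ChIP was near that of the rest of the genome, and input was lower in some loci and not in others. The 315 peaks had a median ChIP of 59.2 reads per bin, and the 37322 other autosomal peaks 58.8. Median input was 9.95 against 11.9 reads per bin, and the median ratio 2.29 (95% interval 2.20 to 2.39, 287 peaks with input) against 2.08. Input-poor peaks numbered 60 of 315 (19.0%), where the share over the list was 1.09%. No input read was found in 28 (8.89%; list 0.307%). Strict peaks, whose mean p was no higher than 0.05, numbered 103 (32.7%; list 3.17%), and the authors' quality flag was carried by 209 (66.3%; list 30.8%). A deposited log2 ratio above 3 was found in 74 peaks (23.5%; list 1.48%). The loci were selected on these same values, so the shares describe the choice and no more is read from them.

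The loci did not behave alike. Peak density ran from 0.2 per Mb on chromosome 14 to 59.5 per Mb in the Skint cluster, with 15.7 per Mb in the other autosomal DNA. Chromosomes 1, 5, 8 and 17 held all but 1 of the 60 input-poor peaks. The Mup, Skint and chromosome 14 loci held 0, among 4, 119 and 1 peaks. Against the list's share of 1.09%, a count of 0 in so few peaks does not set these loci apart from the list. Peaks nearest to the borders were mostly ordinary, but some lay far from them. Examples are 1500 kb inside the lower Mup border and 2023 kb outside the upper Pramef/zinc finger border. The 15 nearest inside had a median ratio of 1.85 (1.44 to 113, 1 of them without input) with 3 input-poor, and the 15 nearest outside had 2.08 (1.49 to 11) with 0. The 16 flanks of 0.5 Mb held 64 peaks, 0 of them input-poor, where the share over the list was 1.09%. Of these peaks, 13 and 21 lay below and above the Skint locus, which itself held no input-poor peak. With so few peaks, 0 of 64 or 0 of 15 cannot be told apart from that share, so no edge at the borders is read from them.

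**Figure D2:**
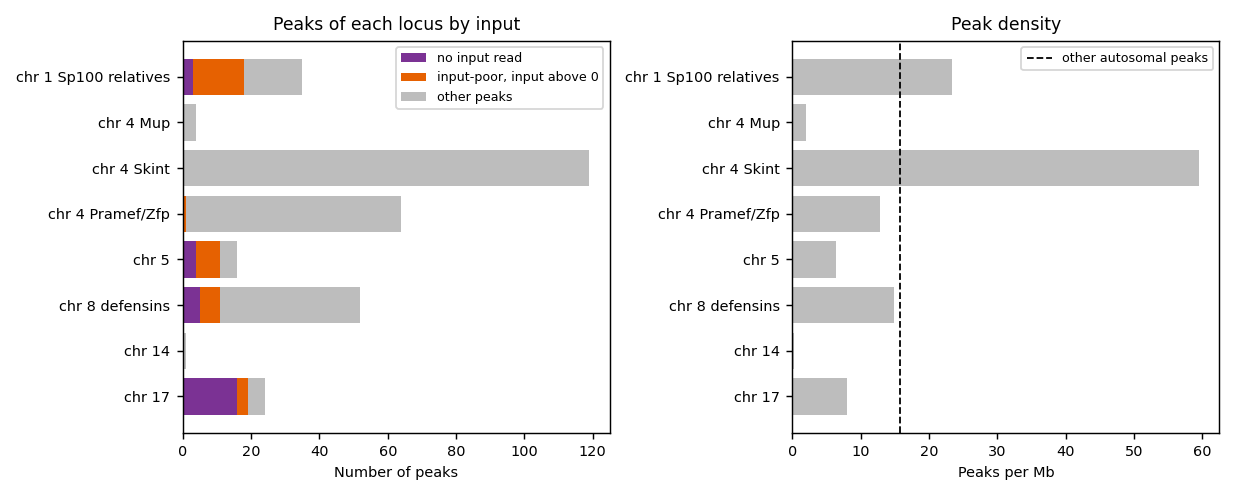
The left bars give the number of peaks in each locus, split into peaks without an input read, other input-poor peaks and all others, and the right bars give peaks per Mb with the 15.7 per Mb of other autosomal DNA dashed. Input-poor peaks make up most of the chromosome 17 and chromosome 5 bars and 51.4% of the chromosome 1 bar. The Skint bar is the longest in both panels at 119 peaks and 59.5 per Mb.

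The chromosome 1 locus of Sp100 relatives combined high ChIP with low input. Its 35 peaks had ChIP from 42.25 to 192 reads per bin with a median of 77.5 (95% interval 68.7 to 88.4). Input ran from 0 to 18.0 with a median of 2.58. The ratio, in the 32 peaks with input, ran from 1.55 to 204 with a median of 11.3 (95% interval 6.87 to 18.3). Of the 35, 18 were input-poor (51.4%, list 1.09%) and 3 had no input read (8.57%, list 0.307%). Strict peaks numbered 20 (57.1%, list 3.17%), and 35 carried the quality flag (100%, list 30.8%). It was the locus with the highest median ChIP among those with more than 1 peak except the Pramef/zinc finger locus, at 80.0.

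Nearly all of this signal lay in 1 stretch. Of the 35 peaks, 33 fell in chr1:84959455-85343845, 384 kb of which 39.0% was covered, and the last 656 kb of the locus held no peak. The other 2, at the start of the locus, had ratios of 1.55 and 1.63 with input of 16.1 and 18.0 reads per bin, so they resembled ordinary peaks. The 17 peaks that were not input-poor still had a median ratio of 6.83 (1.55 to 22.4), with a median input of 6.83 reads per bin.

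Within it, 10 input-poor peaks followed each other without another peak between them in chr1:85264112-85343845. They covered 82.6% of that 79.7 kb, with ChIP from 42.25 to 154 reads per bin and up to 581 reads in a single bin. The run averaged 111.5 ChIP and 1.48 input reads per bin, which is 31.1-fold over scaled input (28.4 to 34.0). Its widest peak, chr1:85264112-85288079, is also the widest of the locus, and had 154 ChIP and 2.57 input reads per bin, a ratio of 24.7 (22.1 to 27.7). The neighbouring peak chr1:85288502-85297304 had the largest ratio of the locus, 204 (111 to 426), with 110 ChIP reads per bin and 10 input counts summed over its bins. Of the 3 peaks without input, chr1:85311956-85312747 had the most ChIP, 71.2 reads per bin, which is at least 49.0-fold with the floor for an unseen input set at 3 counts per peak. A shorter run of 3 peaks at chr1:85143904-85163577 stood 17.5-fold over scaled input (13.2 to 23.5).

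The highest ChIP of the locus was not in an input-poor peak. It was in chr1:85075031-85090999, with 192 ChIP and 4.66 input reads per bin, a ratio of 17 (15.3 to 18.9) and a top bin of 702 reads. High ChIP in this locus stood on both sides of the input-poor border.

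**Figure D3:**
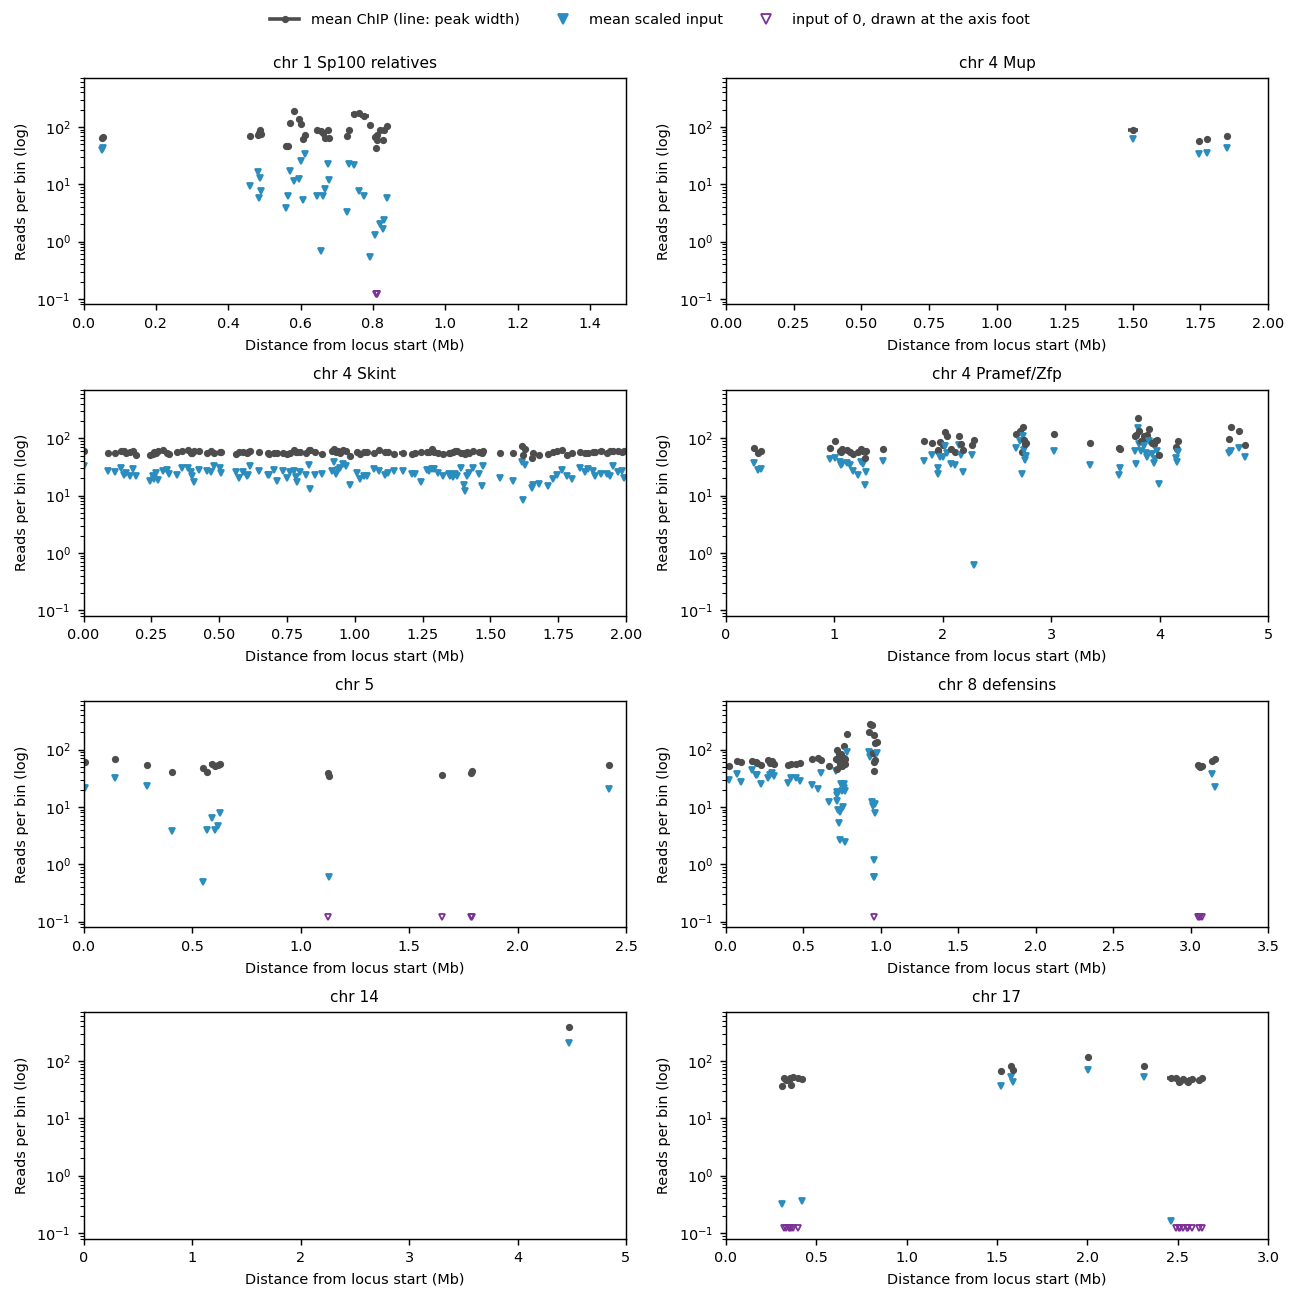
Every peak of the 8 loci is drawn at its distance from the locus start (Mb); the log axis gives reads per bin, grey marks are mean ChIP, blue triangles mean scaled input, and open triangles at the axis foot peaks with an input of 0. Scaled input runs in parallel below ChIP along the Skint and Mup loci and falls away from it in the runs of chromosomes 1, 5, 8 and 17.

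The Mup locus was nearly empty of peaks. It held 4 in 2 Mb (2 per Mb), and the first 1481 kb held none. ChIP in the 4 peaks was 89.9, 57.8, 62.1 and 70.25 reads per bin in order of position, and input was 25.8, 14, 14.2 and 17.7. Their ratios ran from 1.44 to 1.80, below the median of the list. Of the 4, 0 were input-poor (list 1.09%), 1 was strict (list 3.17%) and 1 carried the flag (list 30.8%). That 1 peak, chr4:61481237-61518349, was 37113 bp wide, with 4800 input counts and a ratio of 1.44 (1.39 to 1.49). It is the widest peak of the 8 loci but one, and its input was 25.8 reads per bin where the list had a median of 11.9.

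The Skint locus was a dense field of peaks with ChIP near the list's median. Its 119 peaks gave 59.5 per Mb and covered 42.3% of 2 Mb, against 6.12% of the other autosomal DNA. Each of its 8 windows of 0.25 Mb held 10 to 20 peaks, and the largest gap without a peak was 86.5 kb. Coverage of the windows ran from 18.0% at 113 to 113.25 Mb, where the median ratio was 3.02, to 56.9% at 112.75 to 113 Mb, where it was 2.36. The density went beyond the borders, with 13 peaks (26 per Mb) in the 0.5 Mb below and 21 (42 per Mb) above.

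ChIP within it varied little. ChIP ran from 45.3 to 72.4 reads per bin with a median of 57.1 (95% interval 56.3 to 57.6), and input from 3.5 to 15.8 with a median of 10. The ratio ran from 1.70 to 5.93 with a median of 2.33 (2.23 to 2.42). Of the 119 peaks, 17 were strict (14.3%, list 3.17%) and 57 carried the flag (47.9%, list 30.8%). Input-poor peaks numbered 0 (list 1.09%), and 0 had a log2 ratio above 3 (list 1.48%). Against the list, the locus thus stood out by how many peaks it held, how wide they were (median 6446 bp, list 3085 bp) and its share of strict peaks, not by the level of ChIP. Its peak density was the highest of the 8 loci, but its width and strict share were not. The chromosome 17 locus had a median width of 8887.5 bp, and strict peaks made up 32.7% of the 8 loci together. The widest, chr4:113396171-113421101, spanned 24931 bp at 59.8 ChIP and 9.85 input reads per bin, a ratio of 2.51 (2.36 to 2.67). The largest ratio, 5.93, was in chr4:113120400-113121153 and rested on 14 input counts (3.46 to 11.1). The highest ChIP and the highest input of the locus were in the same peak, chr4:113115853-113116786, at 72.4 and 15.8 reads per bin. Skint promoters in the table shared no 100-base stretch, as given above.

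In the Pramef and zinc finger locus ChIP and input were high together. Its 64 peaks had ChIP from 45.65 to 228 reads per bin with a median of 80.0 (95% interval 67.4 to 89.8). Input ran from 0.25 to 62.8 with a median of 18.2, which is above the list's 11.9. The ratio stayed low, with a median of 1.79 (1.68 to 1.97). Across the 64 peaks the rank correlation of ChIP with input was 0.85 and the correlation of their logs 0.52. Over the list's peaks with input these were 0.68 and 0.50, so the second was close to that of the list. In the other loci, too, only peaks with input entered. The rank correlation was 0.93 over 8 of the 24 peaks on chromosome 17 and 0.80 over 12 of the 16 on chromosome 5. The 8 on chromosome 17 join 5 ordinary peaks, high in both values, to input-poor peaks, low in both. The rank correlation was 0.47, 0.18 and 0.05 in the Skint (119 peaks), chromosome 1 (32 peaks) and defensin (47 peaks) loci. The peaks share the same libraries, and a peak must exceed scaled input to be listed. Of the 64, 18 were strict (28.1%, list 3.17%) and 45 carried the flag (70.3%, list 30.8%), although the ratios were low.

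The tallest values gathered in chr4:146763914-146993739, where 14 peaks covered 78.5% of 230 kb and 9 were strict. ChIP there ran from 51.8 to 228 reads per bin and input from 6.65 to 62.8. Its peak chr4:146790200-146808599 had both the highest ChIP and the highest input of the locus, 228 and 62.8 reads per bin, with a ratio of only 1.5 (1.46 to 1.55). The widest peak, chr4:146888336-146918399, had 148 ChIP and 36.5 input reads per bin, a ratio of 1.67 (1.62 to 1.72). Strict peaks here therefore included some of the lowest ratios of the 8 loci.

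A single peak of this locus went the other way. Peak chr4:145291106-145291723, 618 bp wide, had a ratio of 155 with an interval of 27.6 to 6122, from 93.5 ChIP reads per bin and 1 input count in all. The other 63 had ratios between 1.44 and 3.22.

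**Figure D4:**
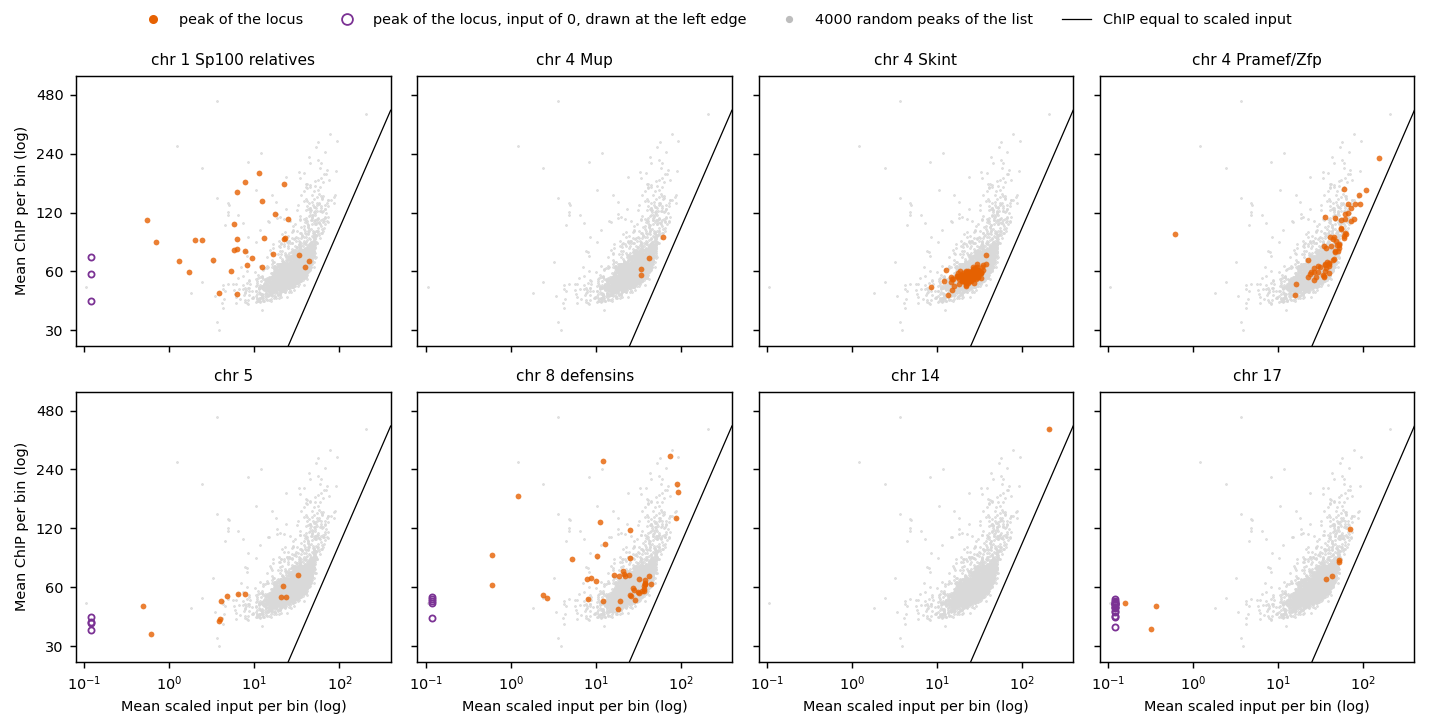
Mean ChIP per bin is plotted against mean scaled input per bin, both on log axes, for the peaks of each locus, over random peaks of the list in grey; open circles at the left edge are peaks with an input of 0, and the black line marks ChIP equal to scaled input. Pramef/zinc finger peaks rise along the grey cloud to 228 reads per bin, Skint peaks sit in a tight group near 57.1, and chromosome 17 peaks split into 5 in the cloud and 19 far to its left.

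The chromosome 5 locus held few peaks, most of them with little input and little ChIP. Its 16 peaks (6.4 per Mb) had ChIP from 34.75 to 69.4 reads per bin with a median of 49.5, below the list's 58.8. Input ran from 0 to 13.4 with a median of 1.65. The ratio in the 12 peaks with input had a median of 9.57 (95% interval 2.60 to 12.6). Of the 16, 11 were input-poor (68.75%, list 1.09%) and 4 had no input read (25%, list 0.307%). Strict peaks numbered 8 (50%, list 3.17%), and 14 carried the flag (87.5%, list 30.8%). The 5 peaks that were not input-poor had a median ChIP of 55.3 and ratios from 2.14 to 7.14, with a median of 2.60. The highest of these, chr5:94121800-94136743, was strict, and its input of 3.2 reads per bin was just above the input-poor border.

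Its input-poor peaks formed 2 runs that differed in size. The first, chr5:93906239-94120472, had 6 peaks with 51.7 ChIP and 2.09 input reads per bin, 10.2-fold over scaled input (9.36 to 11.2). It includes the widest peak of the locus, chr5:94079132-94100414, with 55.7 ChIP and 2.64 input reads per bin, a ratio of 8.72 (7.74 to 9.86). The second, chr5:94624348-95288775, had 5 small peaks of 504 to 1115 bp that covered 0.522% of 664 kb. They held 847 ChIP counts and 1 input count in all, 350-fold with an interval of 62.7 to 13844. ChIP in them was 34.75 to 42.3 reads per bin, near the lowest value of the list, 30. The peak without input that had the most ChIP, chr5:95288272-95288775, stood at least 17.5-fold over the floor. The largest ratio of the locus, 99.6 in chr5:94050215-94051158, rested on 1 input count (17.7 to 3951).

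The defensin locus on chromosome 8 was made of 3 groups of peaks with different values, and 2052 kb between the second and the third held none. Its 52 peaks had ChIP from 41.75 to 282 reads per bin with a median of 62.8 (95% interval 58.2 to 68.3). Input ran from 0 to 38.25 with a median of 9.01, and the ratio in 47 peaks had a median of 2.81 (2.07 to 4.20). Of the 52, 11 were input-poor (21.2%, list 1.09%) and 5 had no input read (9.62%, list 0.307%). Strict peaks numbered 20 (38.5%, list 3.17%), and 33 carried the flag (63.5%, list 30.8%).

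The first group, chr8:19018447-19785199, changed along its length. It had 35 peaks with ratios from 1.39 to 22.7 and a median of 2.20, of which 6 were strict and 3 input-poor. In 19 to 19.25 Mb and 19.25 to 19.5 Mb the median ratios were 1.66 and 1.76, with a median input of 15.1 and 13.4 reads per bin. In 19.5 to 19.75 Mb the 14 peaks had a median ratio of 3.85 and a median input of 7.16, so input was lower there, with ChIP at a median of 67.7 against 59.7 and 57.6. At its end lay the peak with the most input of the locus, chr8:19784419-19785199, with 184 ChIP and 38.25 input reads per bin and a ratio of 1.99 (1.67 to 2.39).

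The second group had the highest ChIP of the locus, in peaks with much and with hardly any input. Its 11 peaks in chr8:19916662-19987141 covered 87.6% of 70.5 kb, with ChIP from 41.75 to 282 reads per bin, a median of 129 and a median ratio of 9.95, and 10 of the 11 were strict. Peak chr8:19927059-19932687 had 282 ChIP and 30.6 input reads per bin, a ratio of 3.82 (3.56 to 4.10). About 20 kb away, the ratio of chr8:19953052-19953773 was 146 (40.2 to 1205), from 176 ChIP reads per bin and 2 input counts in all. That peak began a run of 4 input-poor peaks, to position 19958926, with 1717 ChIP and 5 input counts, 142-fold (60.7 to 438).

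The third group had even ChIP and mostly no input. Of its 6 peaks in chr8:22038906-22159599 the first 4 formed a run to position 22085019 with 10591 ChIP counts and 0 input counts. ChIP in them was 49.7 to 53.7 reads per bin. The run as a whole stood at least 1459-fold over scaled input with a floor of 3 counts over the run. The remaining 2 peaks had ratios of 1.66 and 3.05. The widest peak of the locus, chr8:22060458-22085019, belongs to the run, with 51.2 ChIP reads per bin over 24562 bp and at least 874-fold over the floor.

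On chromosome 14 the locus held 1 peak in 5 Mb, and its flanks held 0. That peak, chr14:7469540-7470221, was 682 bp wide and had 385 ChIP and 85.8 input reads per bin, the highest of both in the 8 loci. Its ratio was 1.85 (1.67 to 2.06), below the median of the list. It carried the flag and was not strict. The neighbouring 4470 kb without a peak show only that no bin there was listed, since values outside peaks were not analysed here.

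The chromosome 17 locus had the most peaks without input. Of its 24 peaks, 19 were input-poor (79.2%, list 1.09%) and 16 had no input read (66.7%, list 0.307%). Strict peaks numbered 19 (79.2%, list 3.17%), and 23 carried the flag (95.8%, list 30.8%). ChIP ran from 36.6 to 119 reads per bin with a median of 49.4 (95% interval 46.9 to 51.0), and median input was 0. A median ratio can be given only over the 8 peaks with input, and was 1.74 (1.57 to 314). It describes mainly the 5 ordinary peaks, and the deposited log2 ratio, which also has values for peaks without input, had a median of 5.50.

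Those 19 input-poor peaks lay in 2 runs of near-uniform ChIP, set apart by the 5 ordinary peaks and by 1094 kb without a peak. The first run, chr17:5810309-5927984, had 9 peaks over 89.4% of 118 kb, 7 without input. ChIP averaged 48.3 reads per bin (36.6 to 52.1 by peak), and 25821 ChIP counts stood against 17 input counts, 628-fold (392 to 1078). The second run, chr17:7941430-8134788, had 10 peaks over 89.7% of 193 kb, 9 without input. ChIP averaged 48.8 reads per bin (42.5 to 51.0 by peak), and 42638 ChIP counts stood against 12 input counts, 1469-fold (841 to 2843). The 12 input counts all lay in its first peak, chr17:7941430-7977885, whose ratio of 314 (180 to 609) was the largest computed in the 8 loci.

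The widest peak of the 8 loci was in the second run, chr17:8055613-8097341. It spanned 41729 bp with 49.3 ChIP reads per bin and 0 input reads, at least 1420-fold over the floor. In the first run, chr17:5867004-5879545 had the most ChIP without input, 52.1 reads per bin and at least 452-fold. The 5 ordinary peaks had ratios of 1.57 to 1.80. Among them chr17:7501356-7502753 had the highest ChIP and the highest input of the locus, 119 and 29.25 reads per bin, a ratio of 1.69 (1.46 to 1.95).

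Set side by side, the 8 runs of input-poor peaks in these loci took 51 of the 60 input-poor peaks and were of different kinds. In 4 runs, the second of chromosomes 5 and 8 and both of chromosome 17, the median peak had no input and ChIP was between 34.75 and 53.7 reads per bin. In both runs of chromosome 1, the first of chromosome 5 and the first of chromosome 8, some input was left in most peaks. ChIP reached 154 reads per bin on chromosome 1 and 176 on chromosome 8. The list held 11 more autosomal runs elsewhere, of 3 to 17 peaks, with a median ChIP per run of 38.5 to 104 reads per bin, and in 8 of the 11 the median input was 0. Runs without input were therefore not particular to these loci. Whether the likeness of gene copies given above moves with these runs was not tested, because no gene was placed on mm9.

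**Figure D5:**
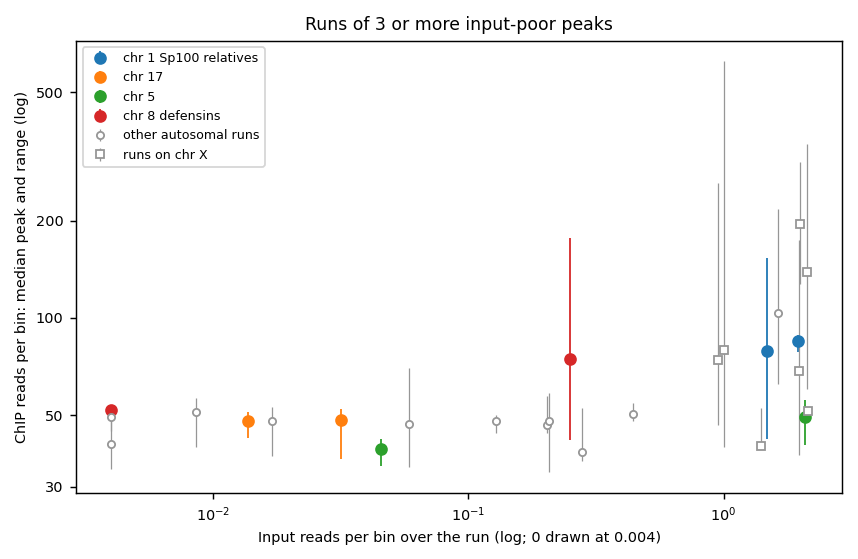
Each point is a run of 3 or more input-poor peaks, at its input reads per bin (log axis, runs with an input of 0 drawn at the left) and the ChIP reads per bin of its median peak (log axis), with bars from its lowest to its highest peak. Runs with under 0.2 input reads per bin have a median ChIP of 39.25 to 51.7 reads per bin, in coloured loci and in open grey circles alike, while the chromosome 1 runs have about 1.48 to 1.96 input reads per bin and higher ChIP.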

How the data were processed

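Sonicated chromatin of dentate gyrus was precipitated with anti-FLAG (2 ChIP libraries) or left unprecipitated (2 input libraries), in libraries of 350 bp on average read as single 100 bp reads, per the labels' protocols. Per the submitters' processing notes, Bowtie 0.12.7 was used with mm9. How reads that match several places and duplicates were treated, how peaks were called and how libraries were joined are points not given in the sources used here. Each could change ChIP and input at repeated genes. Mean ChIP, mean input and scaled input are signal, reads per bin averaged over a peak by the authors, per the file headers. The highest bin of a peak is a deposited whole-number count. The deposited log2 ratio is the authors' mean over bins. The deposited −log10 values were read, by the column name, as a mean p over bins; its definition is not stated, so strict peaks passed no known test. The name of the list gives a false discovery rate of 0.2, and its lowest log2 ratio was 0.59, so ratios are high by selection.

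The number of bins per peak was inferred as that nearest to 200 bp bins which made both sums whole (tolerance 1e-06 reads). That number was no more than 1 from the width divided by 200 in 81.5% of the list and 75.6% of the peaks of the loci. Summed counts, intervals and floors rest on it. Intervals of a ratio are exact binomial 95% intervals, those of medians are binomial, and where input was 0 a floor of 3 counts gave a bound. Runs are 3 or more input-poor peaks with no other listed peak between them, and groups within a locus are parted by gaps over 100 kb. Named in each locus were the peaks with the highest ChIP, the largest ratio, the greatest width, the highest input, and the highest ChIP without input. No test was made: the list gives no value for the replicate libraries, and the loci, families and limits were chosen with earlier results of these data known. Gene symbols and promoters came from RefSeq tables of GRCm38.p6 and were used only for names and similarity of copies; those of the chromosome 14 locus are not reported here. Alternatives were other limits on p, flag, ChIP and input, merging of peaks under 1 kb apart, other rules for belonging to a locus, borders widened by 0.5 Mb, each locus left out, and other forms of the ratio. The calculations were tested on simulated data. Calculations ran in Python 3.11.15 with scipy 1.17.1, numpy 2.4.6 and pandas 2.3.3, and plots in matplotlib 3.10.9.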

Additional observations from a re-analysis of the deposited data

How the results depend on the processing

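Of the alternatives, 11 of 15 left the number of peaks in the 8 loci within 1.5 times of 315, 13 of 19 left the median ratio close to 2.29 and 15 of 18 left the number of input-poor peaks within 1.5 times of 60. The number of peaks was 103 with a mean p of at most 0.05, 209 with the quality flag, 163 with ChIP at or above the list's median and 196 without the Skint locus. The median ratio was 3.92 with the mean p limit, 2.52 with the flag, 2.14 with the higher ChIP, 2.47 without the Pramef and zinc finger locus, 2.67 from the deposited log2 ratio as a fold, and 1.76 with input at or above the list's median. Input-poor peaks numbered 19 with the higher ChIP, 35 after peaks under 1 kb apart were merged, and 28 when only peaks without an input read were counted. With each locus left out in turn, the ranges were 196 to 314 peaks, a ratio of 2.21 to 2.47 and 41 to 60 input-poor peaks. No locus held more than 19 of the 60 input-poor peaks, so these 8 alternatives could not move that count beyond 1.5 times. All 60 also carried the quality flag, so that limit could not change the count. Beyond what each alternative leaves out by its construction, the cause was not tested. Without its input-poor peaks the chromosome 1 locus had a median ratio of 6.83 in place of 11.3. The same step gave 2.60 in place of 9.57 on chromosome 5 and 2.245 in place of 2.81 in the defensin locus. It gave 1.61 in place of 1.74 on chromosome 17 and 1.78 in place of 1.79 in the Pramef and zinc finger locus. No paired analysis was possible because the peak list used here does not separate the libraries, and for the same reason no replicate could be left out. Ratios over few input counts are limited by depth, as their intervals show.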
